A study of Mus musculus with 4 samples.

Results

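The Ces2 carboxylesterase cluster of mouse chromosome 8 was examined in mouse embryonic fibroblasts (MEF cells) exposed to genistein. Its 6 members, Ces2a, Ces2b, Ces2c, Ces2e, Ces2f and Ces2g, were taken by gene symbol from the 47937 genes of the count table. The cluster was chosen by the fold change of Ces2e in this same comparison, so the values of Ces2e are given here as a description without a test, and the question put to the data was whether its neighbours followed. The other 5 members were taken by name and position, and their tests use the same 4 libraries in which Ces2e was chosen. MEF cells are connective tissue cells grown from embryos, and genistein is a plant isoflavone known as an inhibitor of tyrosine kinases and of DNA topoisomerase. The study sequenced total RNA of wild-type MEF cells left untreated and of wild-type MEF cells kept in 50 µM genistein for 24 h, with 2 libraries per group, to follow transcripts of repeats in heterochromatin. No other genotype, agent or time point entered, and the labels do not say whether the untreated cells received the solvent alone. The labels also do not say whether the libraries of a group came from separate cultures, so p-values measure only the spread between these libraries, which may be technical.

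Carboxylesterases are serine hydrolases of the endoplasmic reticulum that split ester bonds in drugs, other foreign compounds and stored lipids. In the mouse the Ces2 branch of the family is encoded by a row of neighbouring genes that arose by duplication, and its enzymes are known above all from liver and small intestine, where they take part in drug clearance and in the breakdown of acylglycerols. Fibroblasts are not a cell type known for high Ces2 expression.

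On GRCm38, the 6 genes lay in a stretch of 236 kb, chr8:104734003-104969537, all on the plus strand and all annotated as protein-coding. From left to right they were Ces2a (ENSMUSG00000055730, chr8:104734003-104741634), Ces2b (ENSMUSG00000050097, chr8:104831572-104840093), Ces2c (ENSMUSG00000061825, chr8:104847068-104854483), Ces2e (ENSMUSG00000031886, chr8:104926260-104934672), Ces2f (ENSMUSG00000062826, chr8:104947356-104960047) and Ces2g (ENSMUSG00000031877, chr8:104961718-104969537). Spacing was uneven: 89937 bases separated Ces2a from Ces2b and 71776 bases separated Ces2c from Ces2e. Ces2e, Ces2f and Ces2g sat close together, with 12683 bases between Ces2e and Ces2f and 1670 bases between Ces2f and Ces2g. The number of annotated genes that overlapped a member was 0.

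The promoters of the cluster are shown because the members that rose by more than 1 on the log2 scale lay side by side. This makes the sequence just before their starts of interest. The 250 bases before each annotated start, taken from RefSeq on GRCm38.p6 and read 5′ to 3′ on the plus strand, span chr8:104733753-104734002 for Ces2a, chr8:104846818-104847067 for Ces2c, chr8:104926010-104926259 for Ces2e, chr8:104947106-104947355 for Ces2f and chr8:104961468-104961717 for Ces2g. A promoter entry was found for 5 of the 6 members, Ces2b having no entry. Capitals mark ACTTTGCCC, the longest run of letters that the windows of Ces2e, Ces2f and Ces2g had in common.
Ces2a: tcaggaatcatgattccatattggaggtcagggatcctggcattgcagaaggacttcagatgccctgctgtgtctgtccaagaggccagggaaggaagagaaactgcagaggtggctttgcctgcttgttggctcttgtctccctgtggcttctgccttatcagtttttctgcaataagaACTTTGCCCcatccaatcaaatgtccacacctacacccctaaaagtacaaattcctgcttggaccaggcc
Ces2c: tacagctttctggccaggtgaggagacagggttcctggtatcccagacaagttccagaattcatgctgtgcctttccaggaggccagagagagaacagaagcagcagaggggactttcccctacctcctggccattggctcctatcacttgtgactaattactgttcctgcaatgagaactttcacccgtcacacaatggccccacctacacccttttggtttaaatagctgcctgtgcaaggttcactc
Ces2e: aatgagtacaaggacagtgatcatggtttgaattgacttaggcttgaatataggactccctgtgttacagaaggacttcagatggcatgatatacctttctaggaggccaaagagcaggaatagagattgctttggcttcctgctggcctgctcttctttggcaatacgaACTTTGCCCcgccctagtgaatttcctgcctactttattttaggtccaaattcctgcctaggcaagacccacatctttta
Ces2f: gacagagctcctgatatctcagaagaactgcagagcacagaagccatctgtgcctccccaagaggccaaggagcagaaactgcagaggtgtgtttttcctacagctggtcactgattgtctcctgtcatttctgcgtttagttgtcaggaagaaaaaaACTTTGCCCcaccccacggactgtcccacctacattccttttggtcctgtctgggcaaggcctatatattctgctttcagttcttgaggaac
Ces2g: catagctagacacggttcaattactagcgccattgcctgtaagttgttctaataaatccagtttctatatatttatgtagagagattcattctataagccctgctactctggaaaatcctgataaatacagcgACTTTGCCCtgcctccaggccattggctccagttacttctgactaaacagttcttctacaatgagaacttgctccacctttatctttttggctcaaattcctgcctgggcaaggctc

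The shared run of 9 letters began 80 bases before the start of Ces2e, 92 before that of Ces2f and 117 before that of Ces2g. It was also in the window of Ces2a, 70 bases before its start, and not in that of Ces2c. On either strand, 73 of 32851 mouse promoter windows held it, a share of 0.222%. The members are related by duplication, and the shared run is given as a description of sequence only. In Ces2a and Ces2e the run directly follows the similar letters caataaga and caatacga. In Ces2g the similar letters caatgaga lie nearer the start and are followed by acttgctcc. The run of Ces2g thus sits at a different place, and whether the runs share an origin was not tested. Whether any factor binds it was not tested. Other short motifs were searched on both strands in the same windows. The TATA box letters TATAAA were in 0 of the 5 member windows and in 12.4% of all promoters. CCAAT was in those of Ces2a, Ces2c and Ces2g and in 33.8% of all promoters, and the GC box GGGCGG was in that of Ces2e, where it overlapped the end of the shared run, and in 32.7%. TGACNNNGC, the core of the antioxidant response element, was in 0 of the 5 and in 10.2% of all promoters, and the p53 half-site was in those of Ces2c and Ces2g and in 7.13%. No searched motif was present in Ces2e, Ces2f and Ces2g together other than the run that was chosen for being shared.

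Ces2e changed from a trace level to a well-measured one. Its raw counts were 9 and 4 without genistein and 863 and 754 with it. Scaled to a common library size, the normalised counts were 8.99 and 4.23 without genistein (6.61 ± 3.36, SD, n = 2) and 809 and 763 with it (786 ± 32.6, SD, n = 2). Both genistein libraries lay far above both untreated libraries, and the groups did not overlap. On the log2 scale the fitted change was 6.85 (standard error 0.16), a fold of 116. Taken from the summed counts alone, the ratio was 118 with an exact 95% interval of 68.7 to 222, which covers counting error only. The wide interval comes from the 4 and 9 reads of the untreated libraries. Without untreated 1 the log2 fold change was 7.49 and without untreated 2 it was 6.43.

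Among the 16240 genes that passed the filter on low counts, Ces2e had rank 5 by log2 fold change, and Ces2f rank 4. Among the 11642 genes with a mean normalised count over 100 it stood at rank 2. Just above it was Gm10800, a predicted gene with counts of 0 and 0 without genistein and 257 and 175 with it. Just below it were Ano3, of the anoctamin family of membrane proteins, with a log2 fold change of 5.11, and Robo3, an axon guidance receptor, with 4.84. These ranks describe how the gene was picked and carry no test.

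Ces2f, the next gene to the right, went from almost no reads to a clear signal. Its raw counts were 0 and 1 in untreated cells and 122 and 106 in genistein-exposed cells. Normalised counts were 0 and 1.06 (0.529 ± 0.749, SD, n = 2) without genistein and 114 and 107 (111 ± 5.03, SD, n = 2) with it. Both genistein libraries were far above both untreated libraries. The untreated level rests on 1 read, so the size of the change is poorly bounded: the ratio of the summed counts was 216 with an exact 95% interval of 38.4 to 8566. Ces2f passed the filter on low counts only through its genistein libraries, so it could be called only as higher, and its call is given as a description of the size (fitted log2 fold change 7.44, standard error 0.43, adjusted p = 1.7e-10, edgeR quasi-likelihood fit, Benjamini-Hochberg over every kept gene and repeat). The fitted value ran from 6.55 without untreated 1 to 9.82 without untreated 2, which leaves the untreated group at 0 reads. The mean normalised count of 55.7 was under the minimum of 100 that the study's methods set.

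Ces2g, the last gene of the row, had the highest level of the members in untreated cells, and it rose as well. Its raw counts were 564 and 576 without genistein and 2506 and 2191 with it. Normalised counts were 563 and 610 (587 ± 32.8, SD, n = 2) without genistein and 2350 and 2218 (2284 ± 93.5, SD, n = 2) with it. The groups did not overlap, and the gap between them was many times the spread within either. It rose 3.90-fold, a log2 fold change of 1.96 (standard error 0.05, adjusted p = 2.6e-14, edgeR quasi-likelihood fit, Benjamini-Hochberg), and the ratio of summed counts had an exact 95% interval of 3.66 to 4.17. Every alternative run for Ces2g gave a log2 fold change between 1.90 and 2.03. The increase of Ces2g had rank 327 among the 16240 genes.

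Ces2a, at the far left end and known for the hydrolysis of acylglycerols in liver, differed little. Its raw counts were 73 and 74 without genistein and 102 and 97 with it, and its normalised counts were 72.9 and 78.3 (75.6 ± 3.83, SD, n = 2) and 95.6 and 98.2 (96.9 ± 1.79, SD, n = 2). The groups did not overlap but lay close. The log2 fold change of 0.36 with a standard error of 0.15 passed the test narrowly (adjusted p = 0.0435, edgeR quasi-likelihood fit, Benjamini-Hochberg). It was past the threshold in 3 of 10 alternative analyses and not in the other 7, with adjusted p-values there from 0.0539 to 0.364 in edgeR or DESeq2. Those 7 were the analysis without a filter on low counts, DESeq2, the replicate block, and the omission of untreated 1, untreated 2, genistein 1 or genistein 2, each in turn. Its log2 fold change stayed between 0.30 and 0.43 in all 10, so the call depends on the analysis while the direction did not change.

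Ces2b and Ces2c were close to undetected in both groups. Ces2b had 0 and 0 reads without genistein and 1 and 1 with it. Ces2c, known for triacylglycerol hydrolysis in liver and intestine, had 0 and 0 reads without genistein and 2 and 0 with it. All these values were at or under 3 reads, the limit that a count of 0 allows in a library, so no fold was computed, and a change of either gene was not detectable at a depth of 28591958 to 31464284 counts per library. These 2 genes did not pass the filter on low counts and were not tested.

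**Figure D1:**
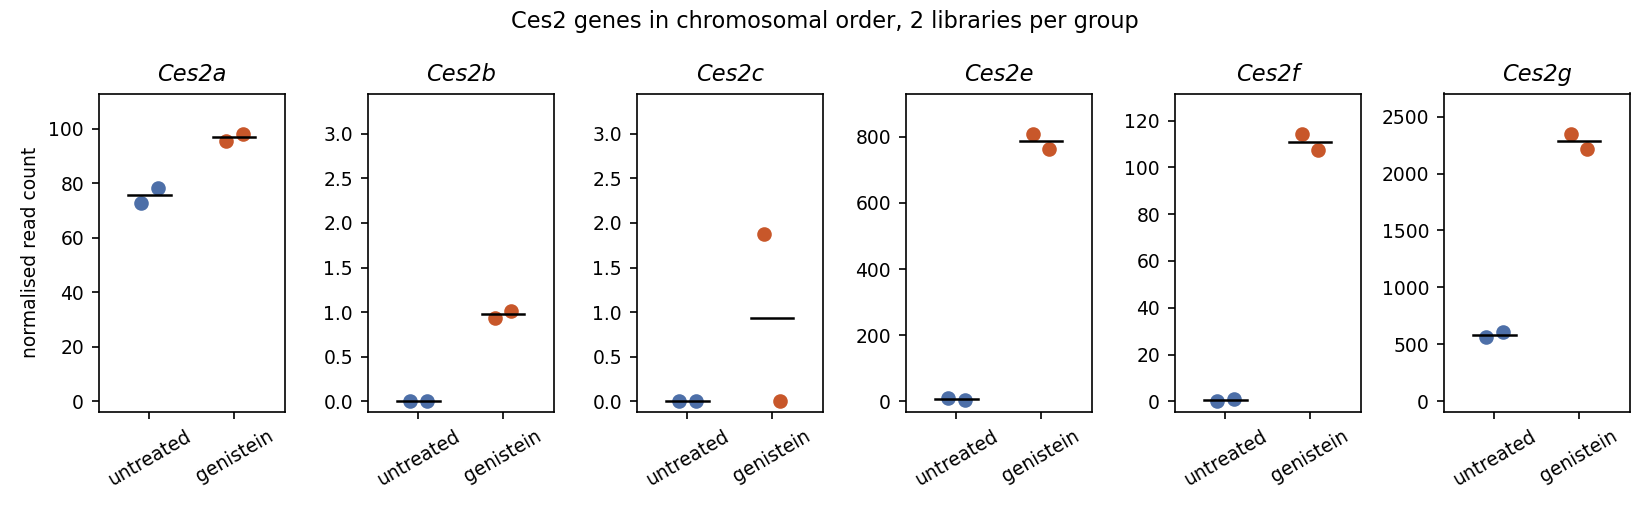
Normalised read count (vertical axes, linear and different for each gene) of the 6 Ces2 genes in their order on the chromosome; points are single libraries, 2 untreated and 2 genistein, and black lines are group means. Ces2e, Ces2f and Ces2g stand apart between groups, Ces2a less so, and Ces2b and Ces2c stay at or under 1.88.

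Of the 5 members other than Ces2e, 3 passed the filter, Ces2a, Ces2f and Ces2g, and each was called higher with genistein at an adjusted p-value under 0.05. Ces2f entered only because it was high with genistein, so its direction was set by the filter and the count of 3 does not serve as support. Calls at this threshold were common in the whole comparison: 33.5% of the tested genes were higher and 38.2% were lower. Past all thresholds of the study's methods (adjusted p-value under 0.05, absolute log2 fold change over 1, mean normalised count over 100), 1 of the 5 was higher, Ces2g, where 3.92% of all tested genes were higher and 4.16% were lower. With a minimum mean count of 10 in place of 100, Ces2f was past them too. The members that rose by more than 1 on the log2 scale were the 3 adjacent ones at the right end of the row, Ces2e, Ces2f and Ces2g, and the members to their left were either near undetected or changed by 0.36.

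The order of levels within the family changed with genistein. In CPM (counts scaled to library size) per kilobase of exon, Ces2g led the untreated cells at 5.49 ± 0.307 (SD, n = 2), followed by Ces2a at 1.07 ± 0.0543 and Ces2e at 0.0819 ± 0.0417. Ces2f, at 0.00359 ± 0.00508, could not be set apart from Ces2b and Ces2c at 0. In genistein-exposed cells Ces2g still led at 21.4 ± 0.874, but Ces2e at 9.74 ± 0.403 came next, above Ces2a at 1.37 ± 0.0254 and Ces2f at 0.752 ± 0.0341. Each of these 4 levels was separated from its neighbour in the order by more than the spread between libraries. Ces2c at 0.0136 ± 0.0193 and Ces2b at 0.00956 ± 0.000517 did not differ beyond their spread. The place of Ces2f depends on the length used. Its annotated exons cover 4925 bases but its longest coding transcript has 1823, and in CPM per kilobase of that transcript, a length chosen after seeing the data, Ces2f reached 2.03 ± 0.0922 against 1.65 ± 0.0306 for Ces2a, which turns their order.

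The reads gained by the cluster were mostly those of Ces2g and Ces2e, the latter being the gene by which it was chosen. Summed over the 6 genes, untreated libraries held 645 and 693 normalised counts and genistein libraries held 3372 and 3187. As a share of the Ces2 reads, not corrected for gene length, Ces2g held 87.3% and 87.9% without genistein and 69.7% and 69.6% with it. Ces2e held 1.39% (95% interval 0.639 to 2.63, Clopper-Pearson) and 0.611% (0.167 to 1.56) without genistein and 24.0% (22.6 to 25.4) and 23.9% (22.5 to 25.5) with it. The share of Ces2e was far higher in both genistein libraries than in either untreated one, and the genistein libraries were nearly equal. Ces2a held 11.3% in each untreated library and 2.84% and 3.08% in the genistein libraries, while its own count did not fall. Ces2f held 0% and 0.153% without genistein and 3.39% and 3.37% with it. These intervals cover counting error only, because amplified reads that carry no molecular identifiers are not independent molecules.

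**Figure D2:**
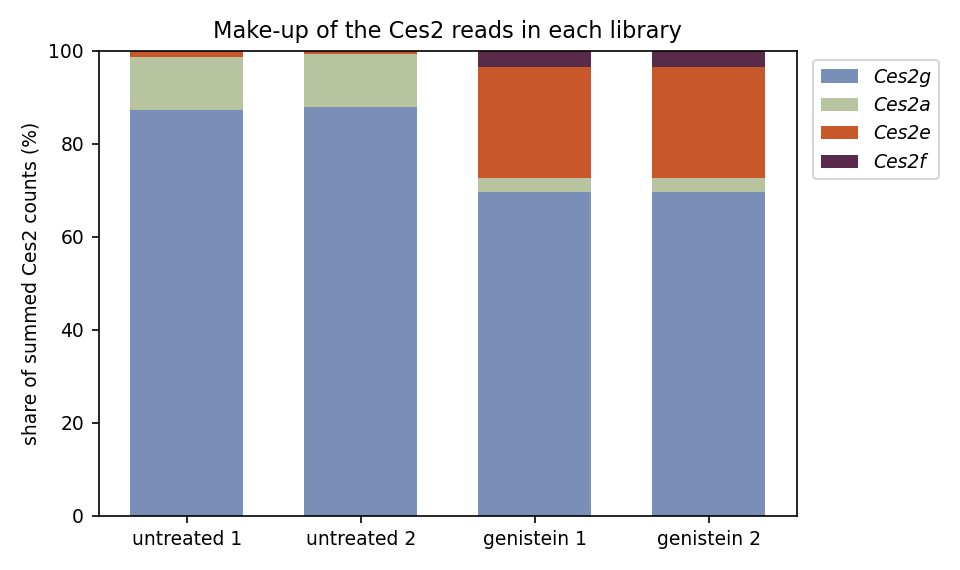
Share of the summed Ces2 read counts (vertical axis, percent, not corrected for gene length) in each of the 4 libraries; stacked bars show Ces2g, Ces2a, Ces2e and Ces2f, with Ces2b and Ces2c too low to see. Ces2e makes up 1.39% and 0.611% of the untreated bars and 24.0% and 23.9% of the genistein bars.

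Members of a duplicated family can share reads, so the uniqueness of their transcripts was measured. The longest coding transcripts of Ces2e and Ces2f were 80.5% identical over 1682 aligned bases, those of Ces2e and Ces2g 82.5% over 1748 and those of Ces2f and Ces2g 81.1% over 1667. The closest pair was Ces2b and Ces2c at 90.7%. Of all runs of 150 bases in a transcript, the read length of the study, 0 of 2550 in Ces2e, 0 of 1674 in Ces2f and 0 of 2710 in Ces2g occurred in the transcripts of another annotated gene. For runs of 75 bases the shares were 0.343% in Ces2e, 0.743% in Ces2f and 0.79% in Ces2g. Ces2a and Ces2c were less unique, with 4.03% and 3.35% of their runs of 150 bases, and 14.8% and 25.9% of their runs of 75 bases, found elsewhere. The small count differences of Ces2a and Ces2c are uncertain for that reason as well, since Ces2a shared runs with Gm7208 and Ces2c with Ces2d-ps and Gm8798.

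Further genes of the same stretch did not show the rise. Ces2d-ps, a pseudogene between members of the row, had 6 and 2 reads without genistein and 6 and 4 with it. Ces2h, the next coding gene 31.3 kb to the right of Ces2g, had 0 reads in all 4 libraries, and so did Ces3a at 79.1 kb and Ces3b at 114 kb, both carboxylesterase genes of another branch. A count of 0 allows up to 3 reads per library. On the left, the nearest coding genes were Ciao2b at 92.0 kb, of the cytosolic iron-sulfur assembly machinery, Rrad at 103 kb, a small GTPase, and Cdh16 at 110 kb, a cadherin. Ciao2b had counts of 822 and 706 without genistein and 644 and 536 with it and fell by 0.45 on the log2 scale. Rrad had 271 and 279 against 231 and 235 and fell by 0.32, and both falls passed the test (adjusted p = 2.0e-05 and 0.00823, edgeR quasi-likelihood fit, Benjamini-Hochberg). Cdh16 had 1 and 0 reads against 1 and 0.

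Within 500 kb on either side of the cluster, 50 other genes were in the count table, 11 of them at 0 in all libraries, and 29 passed the filter. At an adjusted p-value under 0.05 in edgeR, 12 of the 29 were higher (41.4%, against 33.5% of all tested genes) and 11 were lower (37.9%, against 38.2%). Their median log2 fold change was 0.10, where that of all tested genes was -0.03. Past the thresholds of the study's methods there were 0 in edgeR, 0 with the unadjusted p-value in place of the adjusted one and 0 in DESeq2, although 24 of the 29 had an unadjusted p-value under 0.05. The largest absolute change among those with a mean count over 100 was 0.88.

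The largest rises there were those of 2 lowly expressed genes. Gm3830, a non-coding gene 195 kb to the right of the cluster, went from 3 and 1 reads to 21 and 14, a log2 fold change of 2.98 with a standard error of 0.57. Lrrc29, of the leucine-rich repeat proteins, went from 37 and 42 reads to 122 and 94, a log2 fold change of 1.37. Tppp3, Gm24629 and Exoc3l followed at 0.84, 0.82 and 0.77. The largest falls were those of Elmo3, an engulfment and motility adaptor, from 133 and 136 reads to 75 and 47 (-1.22), and E2f4, a cell cycle transcription factor (-0.88). Pdp2, Slc9a5 and Cbfb changed by -0.76, -0.70 and -0.49 on the same scale. Each of these genes passed the edgeR test, and the only one with a larger fitted change than Ces2g was Gm3830, whose mean normalised count was 9.48. Gm3830 and Tppp3 passed the filter on low counts only through their genistein libraries, which favours a call as higher. Their calls, counted among the neighbours called higher, are therefore descriptions.

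**Figure D3:**
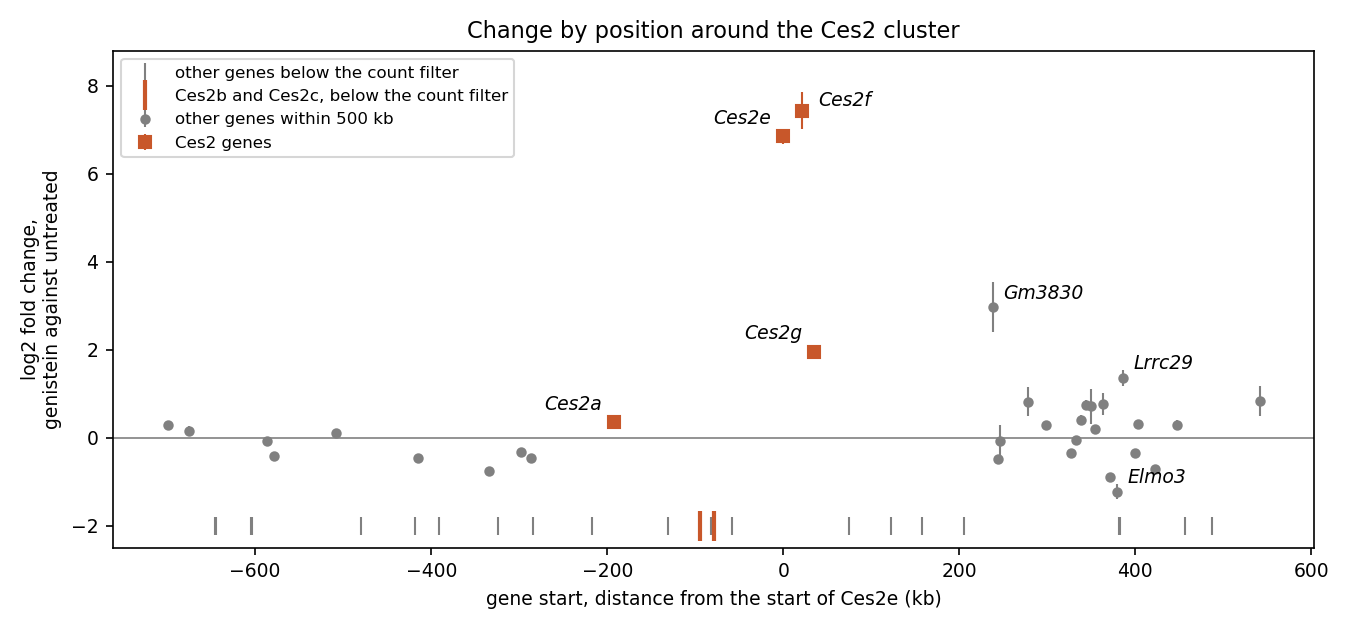
Fitted log2 fold change, genistein against untreated (vertical axis), by distance of each gene's start from the start of Ces2e (horizontal axis, kb); squares are Ces2 genes and grey points other genes within 500 kb, bars are standard errors, and ticks at the bottom mark genes below the count filter. Ces2e at 6.85, Ces2f at 7.44 and Ces2g at 1.96 lie together, and the other genes apart from Gm3830 at 2.98 lie between -1.22 and 1.37.

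Carboxylesterase genes outside the Ces2 row gave little signal. Of 14 such genes listed, including Ces2h and Ces2d-ps, 5 were at 0 in all libraries and 2 passed the filter. Ces1g, known for roles in hepatic lipid metabolism, had counts of 257 and 256 without genistein and 313 and 247 with it, a log2 fold change of 0.05. Ces1a had 43 and 38 against 48 and 33, a log2 fold change of -0.08. Neither was called in edgeR (adjusted p = 0.69 and 0.765), 0 had an unadjusted p-value under 0.05, and DESeq2 called 1 gene of the list. That gene was Ces1d, named here after its values were seen: it had 0 and 0 reads without genistein and 23 and 8 with it, at least 9.79-fold higher against a limit of 3 reads over the untreated group. Ces1d did not pass the filter on low counts, and its genistein libraries differed widely. Ces1f, also below the filter, had 3 and 3 reads against 9 and 12.

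Other hydrolases of lipids and esters changed in both directions, each with a smaller fitted change than that of Ces2g, although those differences were not tested. Of 42 listed genes, 36 passed the filter, 19 were higher, 6 were lower and 11 were not called in edgeR, and the median log2 fold change was 0.31 against -0.03 for all tested genes, of which 33.5% were higher and 38.2% lower. Past the study's thresholds 4 were higher and 1 was lower. The largest rises were those of Notum, which removes the lipid from Wnt proteins (1.69, at counts of 13 and 8 against 40 and 32), and Naaa, an amidase of acylethanolamines (1.44). Next came Pon3, a lactonase (1.11), Siae, an esterase of sialic acids (1.07), and Lipe, the hormone-sensitive lipase (1.05, from 112 and 105 reads to 248 and 227). Notum passed the filter on low counts only through its genistein libraries, which favours a call as higher, so its call is a description. The largest falls were those of Lipg, the endothelial lipase (-1.13, from 246 and 224 reads to 122 and 105), and Abhd11, a mitochondrial hydrolase (-0.67). Lypla2, a thioesterase of acylated proteins, changed by -0.51, Acot7, an acyl-CoA thioesterase, by -0.16 and Ddhd1, a phospholipase, by -0.15.

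Transcription factors known to govern drug metabolism and lipid genes were listed beside the cluster, as possible regulators by general knowledge. Of 28 counted, 19 passed the filter, 8 were higher, 6 were lower and 5 were not called in edgeR, with a median log2 fold change of 0.04. Of all tested genes 33.5% were higher and 38.2% were lower. Some are named for their known roles rather than their values. The xenobiotic receptor PXR, encoded by Nr1i2, had 0 reads in all 4 libraries, and so did the hepatocyte factor Hnf4a. Nr1i3, which encodes the related receptor CAR, had 8 and 12 reads without genistein and 4 and 4 with it. Ppargc1a, a coactivator (1.11), Ppard, a lipid receptor (0.88), Cebpd (0.77), Nr3c1, the glucocorticoid receptor (0.61), and Nfe2l2, which encodes the stress factor Nrf2 (0.44), were higher. Ppargc1a passed the filter on low counts only through its genistein libraries, which favours a call as higher, so its call is a description. Cebpa (-0.67), Rxrb, a partner of nuclear receptors (-0.52), Keap1, the repressor of Nrf2 (-0.46), Ahr, the aryl hydrocarbon receptor (-0.36), and Trp53 (-0.30) were lower. These are RNA levels, and a link of any of them to the Ces2 genes was not tested.

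**Figure D4:**
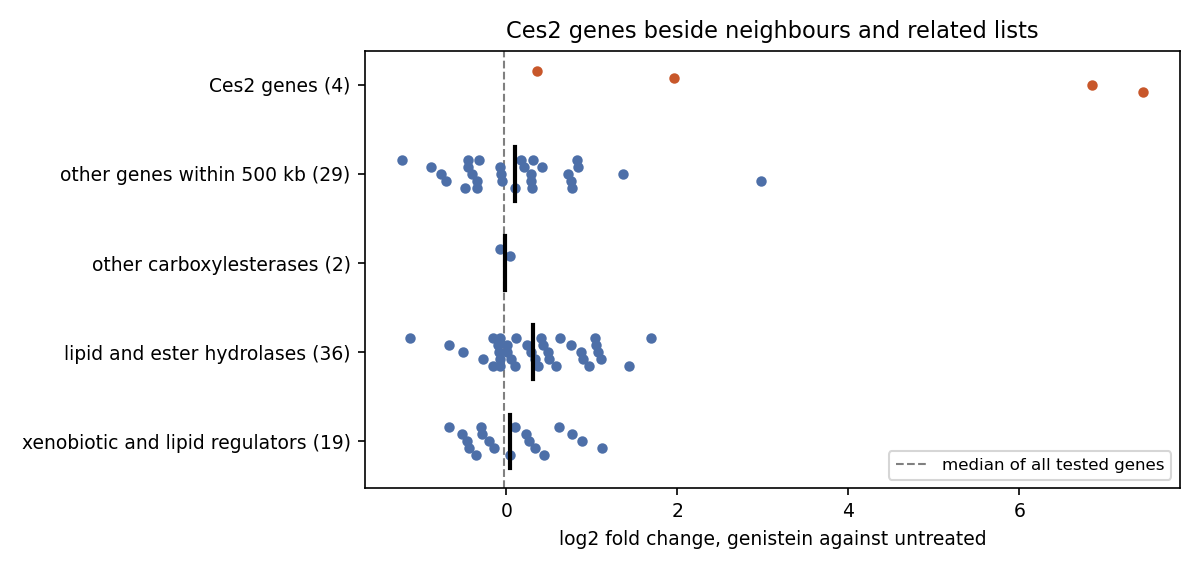
Fitted log2 fold change, genistein against untreated (horizontal axis), of the tested genes of each group (number tested in brackets), 1 point per gene; black bars are medians, drawn for all groups but Ces2, and the dashed line at -0.03 is the median of all tested genes. Ces2e at 6.85 and Ces2f at 7.44 lie to the right of all points of the other groups.

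Genes whose pattern over the 4 libraries was most like that of Ces2e were ranked by the root mean square difference of log2 CPM, each gene taken relative to its own untreated mean. Of 16239 genes, Gm10800 was nearest at a difference of 0.33, and Ces2f was next at 0.91, followed by Svop on chromosome 5 at 1.12, Ano3 on chromosome 2 at 1.42 and 1700007K13Rik on chromosome 2 at 1.51. Svop, which encodes a synaptic vesicle protein, had 3 and 4 reads without genistein and 204 and 183 with it. Ces2g stood at rank 258 and Ces2a at rank 4678. With a prior count of 0.5 in place of 2, chosen after seeing the data, the ranks of the 5 nearest genes became 9, 4, 5, 12 and 7. With 4 libraries in 2 groups, this likeness mostly reads the size of the change and is a description.

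Ces2 genes are known from liver and intestine, so markers of those and of other cell types were read in the same libraries. Fibroblast markers were abundant. Of 16, 14 passed the filter, 2 of them higher and 10 lower, where 33.5% of all tested genes were higher and 38.2% lower. The summed normalised counts of the 16 were 488433 and 499990 without genistein and 472665 and 463533 with it, while Thy1 was at 0 in all. Of 12 hepatocyte markers, 8 were at 0 in all libraries, among them Alb, Ttr and Hnf4a, and the sums were 401 and 432 against 299 and 286, mostly Apob. Of the 3 hepatocyte markers that passed the filter, 2 were lower and 1 was not called. Of 10 enterocyte markers, 5 were at 0, among them Fabp1, Fabp2 and Sis, and the sums ran from 10.6 to 22.3 over the libraries, mostly Lct. Only 1 enterocyte marker passed the filter, and it was not called. Apob itself had 378 and 381 reads without genistein and 303 and 261 with it, and Foxa2, a transcription factor of liver and other endodermal tissues, had 465 and 412 against 383 and 373.

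In the other marker lists few genes passed the filter, and each that passed was called. They were 4 epithelial markers and 1 each of the endothelial, leukocyte and muscle lists, while no adipocyte marker passed. Of all tested genes 33.5% were called higher and 38.2% lower. Of 7 epithelial markers 4 were lower, with Epcam and Krt5 at 0, and the sums were 1218 and 1179 without genistein and 282 and 268 with it. Of 4 endothelial markers 1 was higher, Kdr, and the sums were at most 30.7 without genistein and 85.3 and 97.2 with it, with Cdh5 at 0 to 1 read. Of 5 leukocyte markers 1 was higher, Cd68, which other cells also express, and the sums went from 84.9 and 67.8 to 226 and 220, with Adgre1 and Cd3e at 0. Below the filter, Lyz2 had 0 and 2 reads without genistein and 16 and 6 with it, and Ptprc had 1 and 0 against 0 and 1. Of 4 muscle markers 1 was higher, Des, and the sums went from 37.0 and 29.6 to 284 and 264, with Myod1 and Ckm at 0. The 5 adipocyte markers summed to 4.99 and 3.18 against 3.75 and 4.05, with Plin1, Cidec and Lep at 0. The part of these differences in the change of the Ces2 genes was not tested, and in bulk RNA a change in the number of cells that express a gene and a change in RNA per cell cannot be told apart.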

How the data were processed

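The deposited values were raw whole-number counts of reads per gene and per repeat subfamily. To make them, the authors removed ribosomal RNA, built stranded libraries read from both ends, trimmed with Trim Galore, aligned to mm10 (GRCm38) with STAR, which kept multiply aligned reads, and ran TEtranscripts, whose strand option was not given in the sources used here.

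All 4 libraries entered a single edgeR fit (edgeR 4.0.16, R 4.3.3). filterByExpr by group kept 16240 genes and 1118 repeats, sizes were scaled by TMM, and groups were compared with the quasi-likelihood test, adjusted by Benjamini-Hochberg over the 17358 kept entries. An entry without a name held 0.00208% to 0.00314% of the counts and was left out. Library totals were 30749974 and 28908957 (untreated) and 31464284 and 28591958 (genistein). Replicates correlated with r = 0.996 and 0.995 in log2 CPM, and their counts differed beyond sampling noise, with a chi-square of 5.94 and 13.4 per degree of freedom. Normalised counts were counts over effective library size, times the mean effective size. The standard error is the log2 fold change divided by the square root of F. Thresholds followed the study's methods. With 2 libraries per group, the smallest p of an exact permutation test (two-sided) is 0.333.

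Coordinates, exons and transcripts came from GENCODE on GRCm38, and promoter windows from RefSeq (GRCm38.p6). Transcripts were compared with blastn 2.17.0. No protein sequences were used.

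The members, lists and alternatives were chosen with earlier results of these data known. Named genes were all 6 members, Ces2h and Ces2d-ps, the 3 nearest coding genes on each side, up to 5 higher and 5 lower called genes of largest change within 500 kb and in each list, carboxylesterases past the filter, and the 5 genes most like Ces2e. The regulator counts leave out a gene that is not reported here. Alternatives were other scaling, no filter, DESeq2 1.42.0, other windows, a lower count minimum, a replicate block and the omission of each library.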

Additional observations from a re-analysis of the deposited data

How the results depend on the processing

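With genistein against untreated cells, the rise of Ces2g kept its direction and passed the test in all 10 alternatives, and that of Ces2a kept its direction in all 10 and passed in 3. Ces2f was called in all 10 too, but wherever the filter on low counts was used it entered only through its genistein libraries, which fixed its direction. The count of members past the study's thresholds other than Ces2e was 1, and 2 with a mean normalised count over 10 in place of 100. Genes within 500 kb numbered 12 higher and 11 lower, and DESeq2 called 7 of them higher. A window of 250 kb held 2 higher (25%) and 5 lower (62.5%) of 8 tested, with a median log2 fold change of -0.38. One of 1000 kb held 21 (40.4%) and 18 (34.6%) of 52 (median 0.02, against 0.10 at 500 kb). Of all tested genes 33.5% were higher and 38.2% lower. The balance thus depended on the window, with few genes in the smallest, and the cause was not tested. Other carboxylesterases called changed from 0 to 2 with no filter on low counts (Ces1d and Ces1f) and to 1 in DESeq2 (Ces1d), since more genes of low count were tested.

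Leaving out each library in turn, the log2 fold change of Ces2e ran from 6.43 to 7.49, other members called higher were 2, members past the study's thresholds 1, neighbours higher 8 to 11 and lower 10 to 11, other carboxylesterases 1 to 1 (Ces1f without genistein 1, and Ces1d when any other library was left out), hydrolases 23 to 25 and regulators 11 to 12. The group left with 1 library is assumed to vary like the other. Hydrolases and regulators changed numbered 20 to 28 and 11 to 15 over all alternatives.

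Same-numbered libraries did not deviate together (r = -0.03 over 2 pairs), so the numbers were not taken to pair the libraries. With a replicate block, the other members called higher were 2 in place of 3, since the adjusted p of Ces2a was then 0.0544 (edgeR), the log2 fold change of Ces2e was 6.85, and 11 neighbours were higher and 11 lower. Under library totals alone the median log2 fold change of all genes was 0.04 in place of -0.03. Depth limits Ces2b and Ces2c, and the untreated levels of Ces2e and Ces2f, which rest on 13 reads and 1 read.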
